A study of Mus musculus with 4 samples.

Results

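Depolarized mouse cortical neurons gave 4698 islands of BRG1/BRM enrichment that lie inside protein-coding genes, away from both gene ends. They are 22.4% of the 20966 islands in the KCl list (95% exact interval 21.8 to 23.0%). An island is a run of neighbouring windows in which reads of the immunoprecipitate (IP) exceed those of the control. An island was taken when it was wider than 600 bp and narrower than 5000 bp, overlapped the body of a RefSeq protein-coding gene of build mm10 and overlapped no gene of 500 kb or more. It also had to lie clear of a window of 2 kb to either side of the start and end of every protein-coding gene. Island widths are multiples of 200 bp, so the widths taken run from 800 to 4800 bp. The rule uses position and width and no enrichment value. The islands lie in 2482 host genes, and 4684 of them have 1 host gene while 14 lie where genes overlap.

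The neurons were wild type, cultured from the cortex of E16.5 mouse embryos and harvested after 6 days in vitro. The KCl group received 50 mM KCl for 1 h after TTX at 1 µM, which blocks sodium channels, and APV at 100 µM, which blocks NMDA receptors, were added on day 5. The basal group is labelled only as having the basal level of KCl, and the labels do not say whether it received TTX and APV. Each group has 1 IP library and 1 input library, 4 samples in all, so no difference between KCl and basal neurons has a replicate check and none was tested. The J1 antibody recognizes BRG1 and BRM. The labels do not say how many embryos were pooled, and the lists hold DNA, so the labelled cell type could not be checked against expressed markers.

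BRG1 and BRM are alternative ATPases of the BAF (SWI/SNF) complex, which slides and evicts nucleosomes and so opens DNA to transcription factors. The complex is known from promoters and from enhancers, many of which lie in the introns of the genes they act on or of their neighbours. Neuronal BAF carries subunits that differ from those of dividing progenitors, and BRG1 takes part in the transcription of genes that respond to neuronal activity. Many genes also have more than 1 transcription start, so that a promoter can lie deep within what the annotation calls the gene body.

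Sequences could be set beside the islands where an island covered such an internal start, because RefSeq promoter windows of 300 bases (250 before and 50 after the start, GRCm38.p6) were used here. A start was called internal when it lay inside an eligible gene body by the same rule as an island. It is internal only to the outermost limits of the annotated gene and need not be a minor promoter. In the sequences each CG dinucleotide is in capitals. The first set shows 4 of the 10 covered starts with the highest lower limits of the island's fold, picked to show windows both rich and poor in CG. Axin2, a scaffold that limits Wnt signalling, has its start at chr11:108920099-108920398 on the plus strand. Sobp, a nuclear protein with zinc fingers, has one at chr10:43174481-43174780 on the minus strand. Rbms1, an RNA-binding protein, has one at chr2:60881389-60881688 on the minus strand, and Pou2f1, a POU transcription factor, one at chr1:165934899-165935198 on the minus strand.
Axin2: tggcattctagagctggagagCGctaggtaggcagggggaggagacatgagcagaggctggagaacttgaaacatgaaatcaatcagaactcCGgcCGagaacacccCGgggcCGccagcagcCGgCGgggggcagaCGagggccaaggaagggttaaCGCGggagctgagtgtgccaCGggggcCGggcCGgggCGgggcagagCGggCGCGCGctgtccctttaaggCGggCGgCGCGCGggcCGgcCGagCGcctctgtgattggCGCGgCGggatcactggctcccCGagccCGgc
Sobp: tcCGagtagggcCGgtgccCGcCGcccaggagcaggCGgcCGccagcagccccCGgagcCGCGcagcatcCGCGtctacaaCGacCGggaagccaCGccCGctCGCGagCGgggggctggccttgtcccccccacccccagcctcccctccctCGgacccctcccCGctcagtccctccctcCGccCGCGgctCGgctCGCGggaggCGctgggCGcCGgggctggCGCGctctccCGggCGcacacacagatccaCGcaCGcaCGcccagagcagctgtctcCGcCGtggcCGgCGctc
Rbms1: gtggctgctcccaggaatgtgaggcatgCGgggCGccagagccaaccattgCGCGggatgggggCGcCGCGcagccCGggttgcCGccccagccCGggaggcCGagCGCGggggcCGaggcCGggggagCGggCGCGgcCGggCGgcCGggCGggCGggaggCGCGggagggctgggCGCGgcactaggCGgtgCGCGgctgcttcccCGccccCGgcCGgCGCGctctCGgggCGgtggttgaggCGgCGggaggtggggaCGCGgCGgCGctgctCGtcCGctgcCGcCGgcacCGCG
Pou2f1: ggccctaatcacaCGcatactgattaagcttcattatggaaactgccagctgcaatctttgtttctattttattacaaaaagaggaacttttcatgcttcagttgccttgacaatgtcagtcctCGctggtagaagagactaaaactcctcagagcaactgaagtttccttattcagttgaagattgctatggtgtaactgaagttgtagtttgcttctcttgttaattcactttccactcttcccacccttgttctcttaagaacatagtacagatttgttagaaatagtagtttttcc
The first 3 are rich in CG, with 31 CG dinucleotides in Axin2, 40 in Sobp and 49 in Rbms1, while Pou2f1 has 2. Of the 10, 6 had an observed over expected CpG ratio of 0.6 or more and 4 a ratio under 0.6, among them Htr2b, a serotonin receptor, which ranked first, with 4 CG. The Axin2 island held 64 IP reads against 7 control reads, a fold of 5.74 (95% interval 2.63 to 14.9). The fold is the authors' ratio of IP to control reads, scaled for library size. The Sobp island had a fold of 4.22 (2.39 to 8.01), the Rbms1 island 3.38 (1.86 to 6.67) and the Pou2f1 island 3.01 (2.07 to 4.50). None of the 4 overlapped a basal island, and of all the islands inside genes only 2.41% did.

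The second set shows 2 starts of 1 gene. Arpp21, which encodes a phosphoprotein and RNA-binding protein of neurons, has a covered start 48.5 kb from its 5′ end, at chr9:112187717-112188016, and a start under no KCl island 18.9 kb from the 5′ end, at chr9:112217302-112217601, both on the minus strand.
Arpp21 covered: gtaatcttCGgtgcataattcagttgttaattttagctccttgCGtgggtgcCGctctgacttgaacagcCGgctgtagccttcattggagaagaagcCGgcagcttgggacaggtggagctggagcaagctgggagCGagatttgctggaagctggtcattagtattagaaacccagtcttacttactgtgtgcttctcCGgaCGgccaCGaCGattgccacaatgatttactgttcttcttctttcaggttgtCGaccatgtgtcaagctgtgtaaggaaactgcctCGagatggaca
Arpp21 not covered: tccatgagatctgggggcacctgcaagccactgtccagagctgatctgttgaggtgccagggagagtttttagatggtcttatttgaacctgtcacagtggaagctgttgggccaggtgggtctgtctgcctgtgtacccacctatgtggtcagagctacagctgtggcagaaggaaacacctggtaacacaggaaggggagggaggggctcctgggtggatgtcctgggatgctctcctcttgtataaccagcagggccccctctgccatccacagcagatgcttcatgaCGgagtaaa
The covered window has 12 CG and the window not covered 1. The island over the covered start held 163 IP reads against 38 control reads, a fold of 2.69 (1.88 to 3.94). Not every gene had this order. In Echdc1 the window of the covered start had 8 CG and that of a start not covered had 34. Over 72 genes with both kinds of start, the covered kind had the higher CpG ratio in 60 and the lower in 12.

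The third set shows starts of genes known for their response to neuronal activity, chosen after their values were seen. Bdnf encodes a neurotrophin and has several promoters, and its first covered start is at chr2:109692186-109692485 on the plus strand. Npas4 encodes an activity-induced transcription factor, with its covered start at chr19:4989922-4990221 on the minus strand. Rcan1 encodes a regulator of the phosphatase calcineurin, with its covered start at chr16:92400029-92400328 on the minus strand.
Bdnf: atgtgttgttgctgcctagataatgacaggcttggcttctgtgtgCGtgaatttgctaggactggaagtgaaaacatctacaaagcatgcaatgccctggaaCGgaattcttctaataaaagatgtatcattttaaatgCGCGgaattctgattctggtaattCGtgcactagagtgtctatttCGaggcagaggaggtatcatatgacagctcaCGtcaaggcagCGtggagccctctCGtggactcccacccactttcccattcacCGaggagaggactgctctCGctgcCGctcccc
Npas4: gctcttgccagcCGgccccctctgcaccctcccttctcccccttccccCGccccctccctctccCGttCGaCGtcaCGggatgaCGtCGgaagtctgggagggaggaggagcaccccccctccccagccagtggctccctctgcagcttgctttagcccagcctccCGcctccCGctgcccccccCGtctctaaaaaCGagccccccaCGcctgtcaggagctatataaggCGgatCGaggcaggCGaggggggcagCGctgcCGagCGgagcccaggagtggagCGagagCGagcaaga
Rcan1: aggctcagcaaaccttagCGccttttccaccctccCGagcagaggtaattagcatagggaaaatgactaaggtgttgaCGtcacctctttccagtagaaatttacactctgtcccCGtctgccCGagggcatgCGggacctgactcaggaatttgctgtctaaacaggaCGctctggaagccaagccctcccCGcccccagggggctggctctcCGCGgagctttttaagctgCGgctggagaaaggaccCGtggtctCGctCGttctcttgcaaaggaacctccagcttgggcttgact
The cAMP response element TGACGTCA, the site known to bind CREB, was searched on both strands and found in the Rcan1 window, at base 76, and not in the Bdnf or Npas4 windows. Its shorter core TGACG, which the full element contains, was found at 2 places in Rcan1, at 2 in Npas4 and at 1 in Bdnf. The windows of the later Bdnf starts, at 18.3 and 19.7 kb from the 5′ end and under the same island, held no core. Of all 32851 promoter windows in the table, 1.79% hold the full element and 20.8% hold the core. Among internal starts with a CpG ratio of 0.6 or more, as in these Bdnf and Npas4 windows, 34.3% of covered windows held the core. Of those under no KCl island 31.0% did. Under 0.6, as in Rcan1, the shares were 19.9% and 13.1%. In both classes the 95% intervals overlap.
The Bdnf island of 3800 bp covers 3 annotated starts, 17.7, 18.3 and 19.7 kb from the 5′ end, and held 120 IP reads against 36 control reads (fold 2.09, 1.43 to 3.13). Npas4 holds 2 islands. The one over the start held 73 IP reads against 20 control reads (fold 2.29, 1.38 to 3.97), and the other held 111 against 26 (fold 2.68, 1.74 to 4.28). The Rcan1 island held 69 IP reads against 17 control reads (fold 2.55, 1.48 to 4.62). None of these 4 islands overlapped a basal island. The share was 2.41% over all islands inside genes and 2.15% over the whole KCl list, so this does not set the 4 apart.

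The islands were spread thinly. They cover 9.07 Mb, or 1.19% of the 761 Mb of gene body open to the rule, which leaves out the end windows and genes of 500 kb or more. Their density was 6.17 per Mb of this open length (95% Poisson interval 6.00 to 6.35). The density was 8.72 per Mb in genes of 500 kb or more (8.30 to 9.15), 3.95 per Mb outside genes at 2 to 50 kb from a gene end (3.79 to 4.12) and 4.91 per Mb farther out (4.77 to 5.05). None of these intervals overlap, but they cover counting error only. The median distance of an island to the nearest gene end was 35.7 kb (quartiles 15.1 and 71.6 kb), and the median host length was 166 kb.

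Density was higher in longer host genes. It was 2.89 per Mb in hosts under 50 kb (2.65 to 3.14), 5.00 per Mb at 50 to 100 kb (4.66 to 5.35), 7.43 per Mb at 100 to 200 kb (7.05 to 7.83) and 8.68 per Mb at 200 to 500 kb (8.30 to 9.07). The last value lies within the interval of genes of 500 kb or more. By position in the gene, density was 4.35 per Mb at 5 to 10 kb from the 5′ end (3.81 to 4.94) and 8.30 at 100 to 250 kb (7.79 to 8.84). From the 3′ end it was 3.33 at 5 to 10 kb (2.86 to 3.85) and 8.43 at 100 to 250 kb (7.91 to 8.97). At 2 to 5 kb it was 3.21 from the 5′ end and 1.83 from the 3′ end, values that the rule itself lowers, since an island centred near 2 kb would reach the end. Positions far from an end exist only in long genes, so distance and host length cannot be told apart in these values. With each gene split into 10 equal stretches, density was highest in the fourth from the 5′ end, at 7.05 per Mb (6.42 to 7.73), and lowest in the last, at 4.65 (4.03 to 5.34), where the same edge of the rule falls in short genes. Strand was known for the hosts of 3619 islands, and values by 5′ and 3′ end rest on those.

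**Figure D1:**
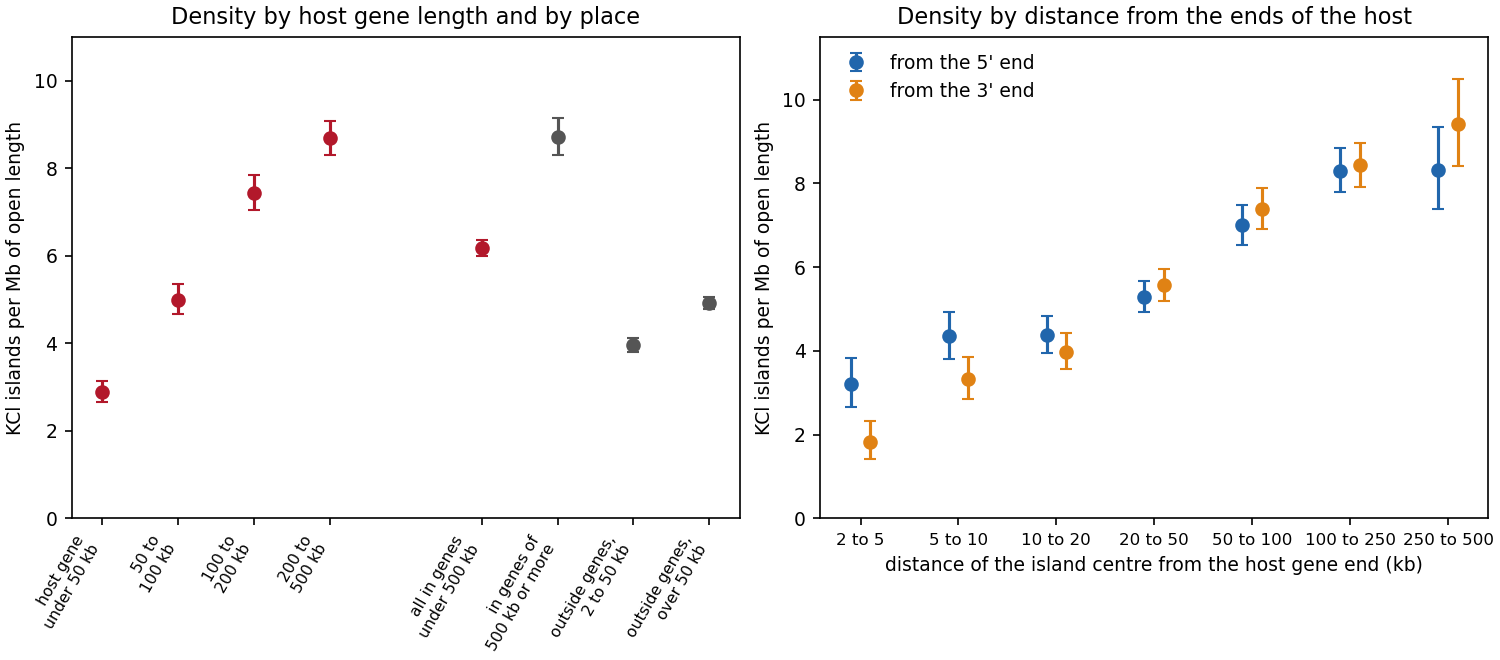
Islands per Mb of open length, with 95% Poisson intervals. Left, by host gene length and over all genes under 500 kb (red), and in the 3 compared places (grey). Right, by distance of the island centre from the 5′ end (blue) and the 3′ end (orange) of the host. Density runs upward with host length from 2.89 to 8.68 per Mb, and the 3′ value lies under the 5′ value at 2 to 5 kb, at 1.83 against 3.21 per Mb.

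The host genes were 2482 of the 17315 genes under 500 kb that have any open length, a share of 14.3%. The share was 4.0% of genes under 50 kb, 24.3% at 50 to 100 kb, 53.7% at 100 to 200 kb and 80.2% at 200 to 500 kb. Of the hosts, 1458 held 1 island, 868 held 2 to 4 and 156 held 5 or more. The 156 together held 1027 islands, 21.9% of all. Neighbours were close in some places, with 17.5% of the islands within 5 kb of another KCl island (16.4 to 18.6%). The share was 14.4% inside genes of 500 kb or more (12.7 to 16.2%) and 16.2% outside genes at 2 to 50 kb (14.8 to 17.8%). Within 50 kb it was 74.3% for the islands here and also inside genes of 500 kb or more.

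Gpm6a, which encodes a membrane glycoprotein of neuronal growth cones and filopodia, held the most islands. It had 18 over 281 kb, with folds of 1.66 to 5.51, and 3 of them overlapped basal islands, while neither end of the gene had a KCl island. Fbxl17, which encodes an F-box protein of ubiquitin ligases, held 14 islands with folds of 1.70 to 4.58. Ppfia2, which encodes liprin-alpha-2 of the presynaptic active zone, also held 14, with folds of 1.88 to 5.74. Pam, the enzyme that amidates neuropeptides, held 13 with folds of 1.43 to 4.22. Msra, a methionine sulfoxide reductase, and Ttc28, a protein with tetratricopeptide repeats, held 13 each. Ttc28 had both weak and strong islands, with a median fold of 1.65 and a highest of 9.11. Dok5, an adaptor of receptor tyrosine kinases, Limch1, Sh3rf3 and Prkca, the alpha form of protein kinase C, were among 6 hosts with 11 each. Of these 10 hosts, Gpm6a, Fbxl17 and Msra had no island at an end.

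**Figure D2:**
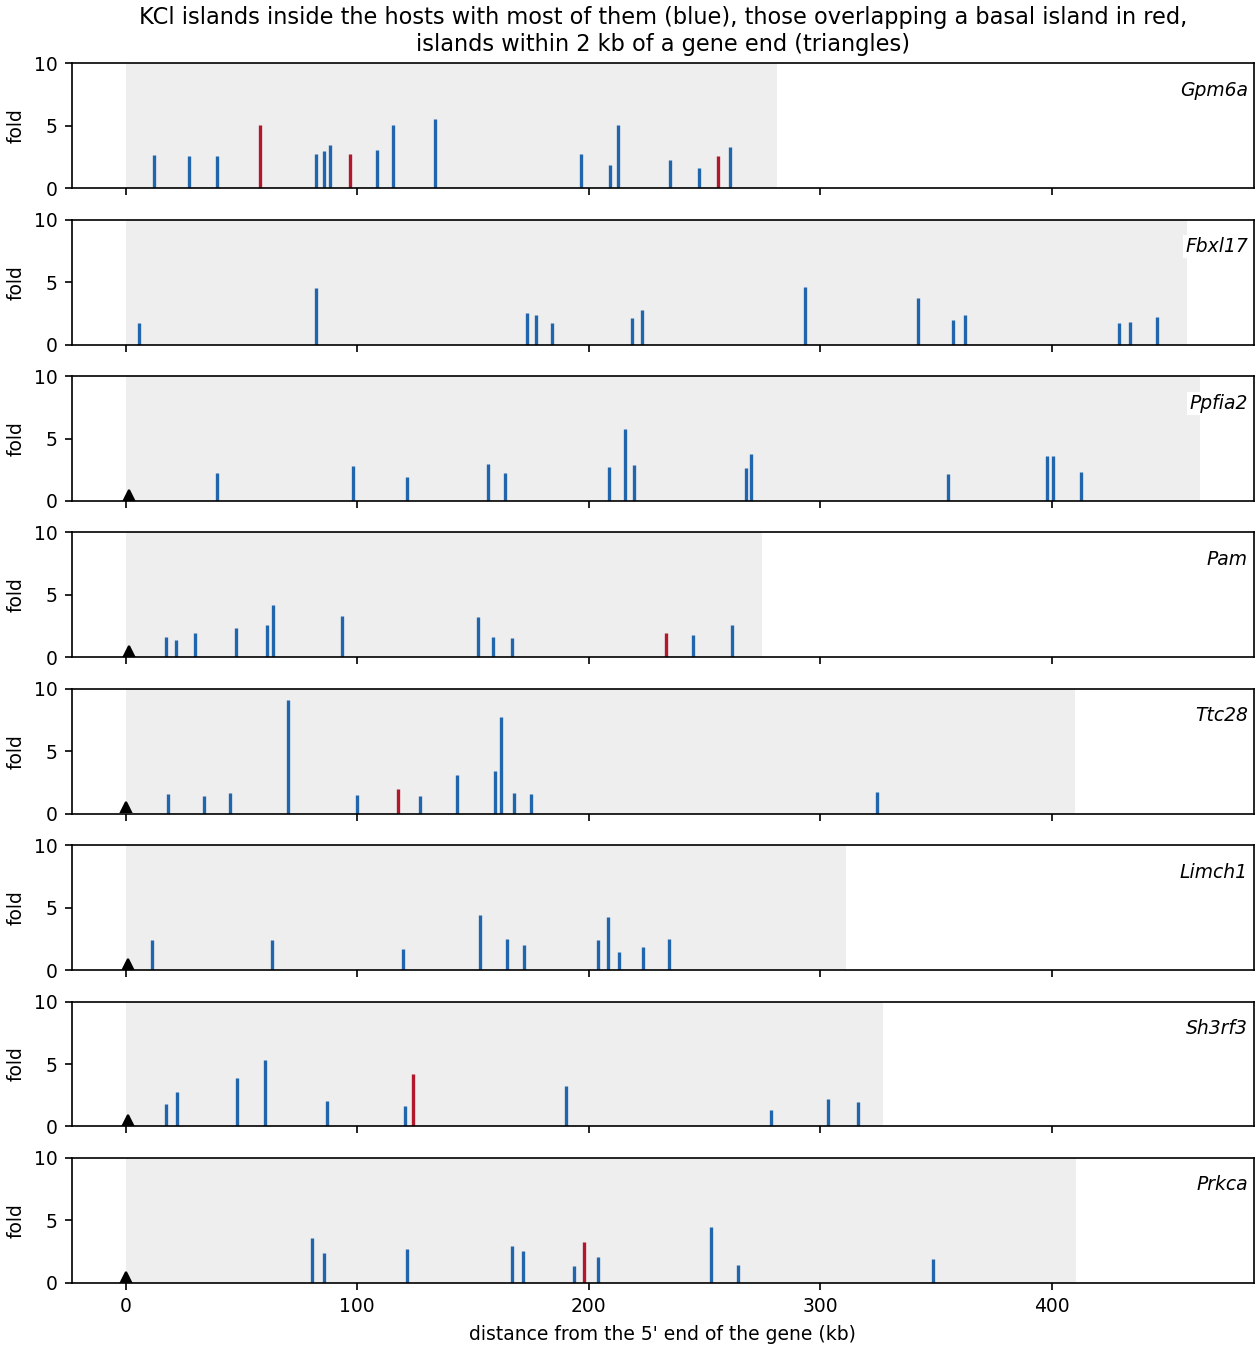
Position of each island (vertical line, height its fold of IP over control) along 8 of the hosts with the most islands and a known strand, in kb from the 5′ end, with the gene body in grey, islands that overlap a basal island in red and islands within 2 kb of a gene end as triangles. Gpm6a carries 18 islands and no triangle, Fbxl17 14 and no triangle, and the tallest line is the 9.11-fold island of Ttc28.

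Counted per 100 kb among hosts with at least 3 islands, small genes led. Csrp2, a LIM domain protein, held 3 islands in 19.3 kb. Rgs13, a regulator of G protein signalling, held 3 in 40.0 kb, with folds of 1.88 to 6.70. Dok5 followed with 11 in 148 kb. Sort1, the sorting receptor sortilin, held 5 in 77.5 kb, with folds of 2.05 to 8.67. Sez6, a neuronal protein of dendrites, held 3 in 48.5 kb, Ptch1, the Hedgehog receptor, 4 in 65.1 kb, and Basp1, a growth cone protein, 3 in 50.5 kb. Of the 10 densest hosts, Gask1b and Gpm6a lacked an island at an end.

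Hosts had an island at an end more often than other genes. An island within 2 kb of either end was present in 1159 of 2482 hosts (46.7%, 44.7 to 48.7%) and in 3719 of 14833 genes with no island inside (25.1%, 24.4 to 25.8%), against 28.2% over both. The order was the same within each length class. It was 36.8% of hosts and 22.8% of other genes under 50 kb, 46.7% and 35.8% at 50 to 100 kb, 48.4% and 34.9% at 100 to 200 kb, and 321 of 609 hosts and 45 of 150 other genes at 200 to 500 kb. In none of the 4 classes did the intervals overlap. With islands of an FDR of at most 1e-05 alone, the shares were 33.6% of hosts and 14.7% of other genes. The islands at ends lay mostly at the 5′ end. At 200 to 500 kb, 47.9% of hosts had one at the 5′ end (43.2 to 52.6%), against 26.8% of genes with no island inside (18.9 to 36.0%). At the 3′ end of the same class the shares were 5.30% of hosts (3.42 to 7.78%) and 4.46% of other genes (1.47 to 10.1%), with overlapping intervals.

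Internal starts were covered far more often than gene body as a whole. An island inside a gene covered 411 of 2936 internal starts, or 14% (12.8 to 15.3%), in 316 of 2206 genes. With every KCl island counted, whether or not it met the rule, 583 were covered (19.9%), and the other 2353 are called uncovered here. Beyond 10 kb from a gene end the share of starts covered was 16.8% (14.8 to 18.8%), where the islands cover 1.39% of the open length. Within 10 kb it was 11.6% (10.1 to 13.3%), where they cover 0.671%. Outer 5′ ends of genes were covered by any KCl island in 1858 of 10533 cases (17.6%, 16.9 to 18.4%) and outer 3′ ends in 312 of 17313 (1.80%, 1.61 to 2.01%). Starts of noncoding genes that lie inside hosts were covered in 97 of 2236 cases (4.34%, 3.53 to 5.27%). Basal islands covered 3 of the 2936 internal starts. With islands of an FDR of at most 1e-05 alone, 8.41% of internal starts were covered, and with islands of at least 2-fold alone 4.77%.

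Coverage followed the CpG content of the promoter window, measured as the observed over the expected number of CG dinucleotides. CpG-rich promoters are known to be broadly active and usually unmethylated. Islands covered 2.75% of internal starts with a ratio under 0.2 (1.71 to 4.18%), 6.51% at 0.2 to 0.4, 15.9% at 0.4 to 0.6, 26.4% at 0.6 to 0.8 and 32.2% at 0.8 or more (28.1 to 36.6%). Outer 5′ ends, counted with any KCl island, ran in the same order, from 1.15% under 0.2 (0.801 to 1.59%) to 40.2% at 0.8 or more (38.3 to 42.1%). Counted with any KCl island too, internal starts were covered in 3.93% under 0.2 (2.67 to 5.57%) and 49.2% at 0.8 or more (44.6 to 53.7%), above the outer ends in each of the 5 classes. The intervals overlapped at 0.6 to 0.8 alone, with 33.9% of internal starts (29.3 to 38.7%) and 28.7% of outer ends (26.7 to 30.9%). These sets come from different genes, since outer ends count only where the outer 5′ end is a listed start. In genes with such a listed start, islands inside the gene covered 23.8% of internal starts with a ratio of 0.6 or more. Over all genes that share was 29.5%. Whether internal starts exceed outer ends within the same genes was not tested. The median ratio was 0.701 at the 411 covered internal starts and 0.293 at uncovered ones, and the median GC content was 62.0% and 52.3%. The same order held within genes. Of 72 genes with both covered and uncovered internal starts, the highest ratio among covered starts was above the highest among uncovered starts in 60 and below it in 12. In Dnmt3a, a DNA methyltransferase, the covered start 5.60 kb from the 5′ end had a ratio of 1.06 and the uncovered start at 90.2 kb had 0.468. In Pou2f1 the order was the other way, with 0.187 at the covered start and 0.329 at the other.

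**Figure D3:**
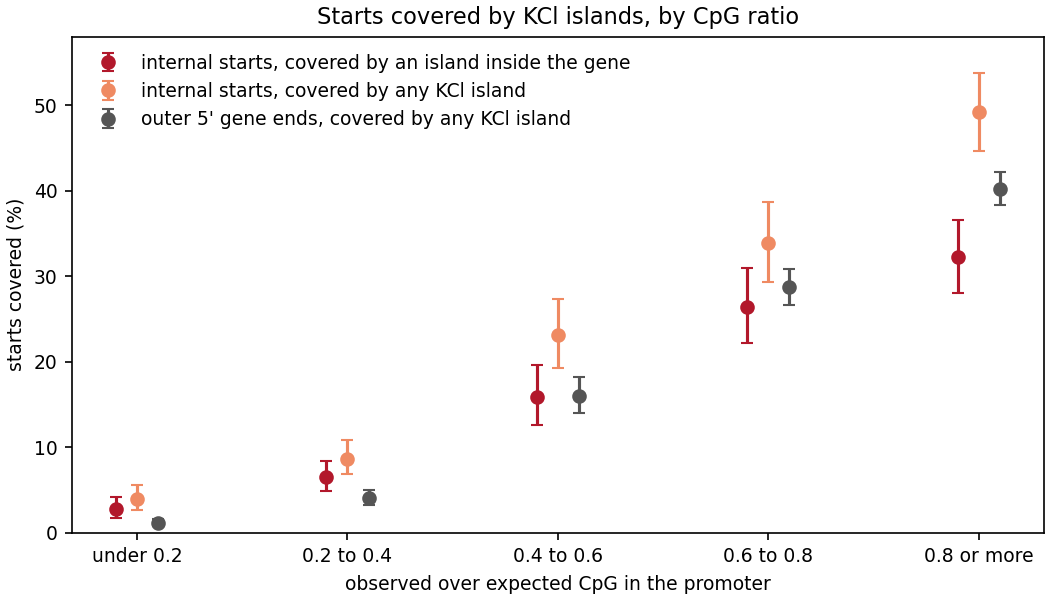
Share of starts covered by KCl islands in 5 classes of observed over expected CpG in the 300-base promoter window, with 95% exact intervals, for internal starts covered by an island inside the gene (red) or by any KCl island (orange) and outer 5′ gene ends covered by any KCl island (grey). All 3 shares run upward with the ratio, to 32.2, 49.2 and 40.2% in the class of 0.8 or more.

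Short motifs were counted on both strands of the promoter windows, since the sequence of the islands themselves was not used here. Some windows of 1 gene overlap and lie under the same island. The intervals here and for covered starts count them as separate and are thus too narrow. With starts of 1 gene within 1 kb joined, the 2936 internal starts form 2619 groups. The GC box GGGCGG, known to bind Sp factors, was in 60.8% of covered windows (55.9 to 65.6%) and 29.5% of uncovered ones (27.6 to 31.3%), against 35.7% of all windows in the table. Among windows with a CpG ratio of 0.6 or more the shares were 79.6% (74.3 to 84.3%) and 68.8% (64.6 to 72.8%). Under 0.6 they were 26.7% (19.7 to 34.7%) and 18.3% (16.6 to 20.2%), intervals that overlap. The full element TGACGTCA was in 13 of 411 covered windows (3.16%, 1.69 to 5.35%) and 27 of 2353 uncovered (1.15%, 0.758 to 1.67%). Among windows with a ratio under 0.6 it was in 7 of 146 covered (4.79%, 1.95 to 9.63%) and 12 of 1834 uncovered (0.654%, 0.339 to 1.14%). At 0.6 or more the order was the other way, with 2.26% of covered (0.835 to 4.86%) and 2.89% of uncovered windows (1.63 to 4.72%), intervals that overlap. The AP-1 motif TGANTCA, bound by FOS and JUN proteins, was in 7.06% of covered (4.78 to 9.98%) and 8.88% of uncovered windows (7.76 to 10.1%), against 7.81% of all windows. The E-box CAGATG was in 11.2% (8.31 to 14.6%) and 17.0% (15.5 to 18.6%), against 17.2% of all windows. Within CpG classes the intervals for CAGATG overlapped, with 18.5% of covered and 18.9% of uncovered windows under 0.6 and 7.17% (4.37 to 11%) and 10.4% (7.91 to 13.4%) at 0.6 or more. CAGCTG was in 17.3% (13.7 to 21.3%) and 20% (18.4 to 21.6%), against 16.3%. The MEF2 pattern, CTA and TAG with any 4 bases between them, was in 2.19% (1.0 to 4.12%) and 4.67% (3.86 to 5.61%), against 3.69%. The CArG frame, CC and GG with any 6 bases between them, was in 83.9% (80.0 to 87.4%) and 73.4% (71.6 to 75.2%), against 73.3%. Under a ratio of 0.6 its order turned, with 66.4% of covered and 69.1% of uncovered windows, and at 0.6 or more the intervals overlapped, with 93.6% (89.9 to 96.2%) and 88.6% (85.6 to 91.2%). Neither the MEF2 pattern nor the CArG frame required A or T at the inner bases. Their shares are thus not those of the narrower binding sites.

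Enrichment was moderate at most islands. The median island was 1800 bp wide and held 60 IP reads against 16 control reads, and the median fold was 2.36 (quartiles 1.85 and 3.14). At 4047 of 4698 islands (86.1%) the lower limit exceeded 1, against 86.4% of the whole KCl list, and 67.0% were at least 2-fold, against 66.6%. The shares are thus near those of the list. The median fold was 2.62 inside genes of 500 kb or more, 1.83 within 2 kb of a gene end, 2.46 outside genes at 2 to 50 kb and 2.72 farther out. Fold fell with width in every place, and the order against gene ends held in each width class. At 800 to 1000 bp the median was 3.30 inside genes and 2.51 at gene ends, and at 3200 to 4800 bp it was 1.83 and 1.71.

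Islands over an internal start had low folds among islands inside genes. The 327 islands that cover an internal start, 6.96% of all, had a median fold of 1.81 (quartiles 1.59 and 2.15), against 2.42 (1.88 and 3.21) for the other 4371. They were also wider, with a median of 2600 against 1600 bp. Within width classes their median fold stayed lower, at 2.0 against 3.30 at 800 to 1000 bp, where they numbered 12, at 1.84 against 2.06 at 2200 to 3000 bp and at 1.65 against 1.88 at 3200 to 4800 bp. Ranked by fold in 10 equal groups, 16.2% of the islands in the lowest group covered an internal start (13.0 to 19.8%) and 0.638% in the highest (0.132 to 1.85%).

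**Figure D4:**
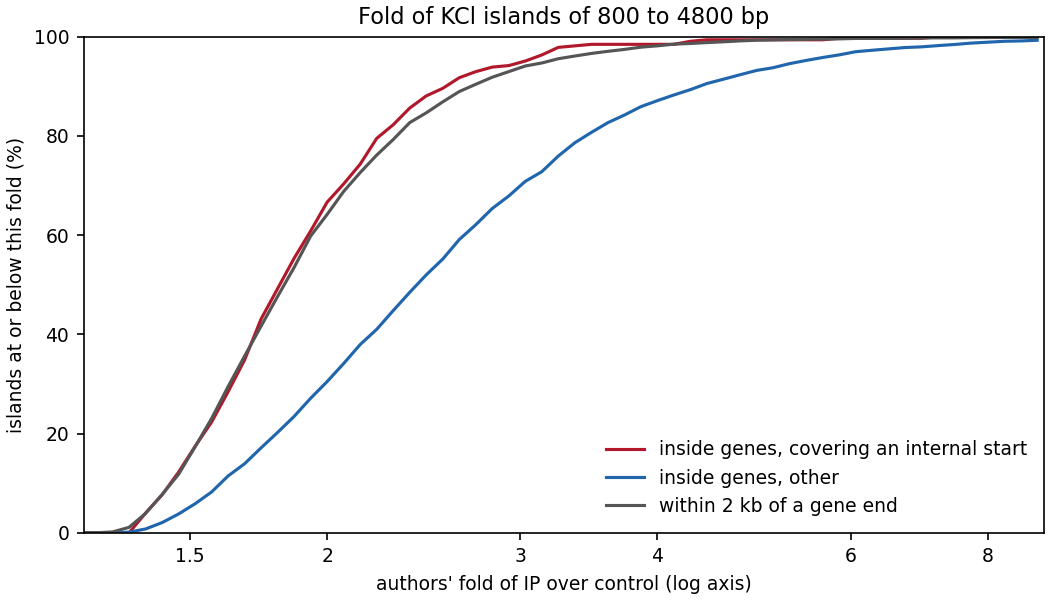
Cumulative share of KCl islands of 800 to 4800 bp at or below each fold of IP over control (log axis), for islands inside genes that cover an internal start (red, n = 327), other islands inside genes (blue, n = 4371) and islands within 2 kb of a gene end (grey, n = 4426). The red and grey curves, with medians of 1.81 and 1.83, run left of the blue curve, with a median of 2.42.

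The strongest islands, ranked by the lower limit of the fold, lay in genes of many kinds, and 9 of the first 10 were of 800 or 1000 bp. An island of 800 bp in Tbc1d8b, which encodes a protein with a Rab GTPase-activating domain, held 91 IP reads against 2 control reads, a fold of 28.6 (7.69 to 240). Col19a1, a nonfibrillar collagen gene, had 2 of the first 10. One held 78 IP reads against 3 (fold 16.3, 5.39 to 80.9), and the other held 39 against 0, a fold of 8.17 if 3 control reads are assumed. Dtd1, a D-aminoacyl-tRNA deacylase, had an island with 74 IP reads against 3 (fold 15.5, 5.10 to 76.8). Atf6, a transcription factor of the unfolded protein response, had one with 59 against 2 (fold 18.5, 4.91 to 157). Sema3a, a secreted axon repellent, had one with 54 against 2 (fold 17.0, 4.47 to 144). Others of the 10 were in Cngb3, Pkn2 and Dkk2. Of these, the islands of Pkn2 and Dkk2 were deep, with 138 IP reads against 10 (fold 8.67, 4.57 to 18.5) and 202 against 18 (fold 7.05, 4.35 to 12.1). Few control reads make the folds of the short islands imprecise. None of the 10 overlapped a basal island, against 2.41% of all the islands inside genes.

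By IP reads the order was different. The deepest island, where Cmss1 and Filip1l overlap, held 269 IP reads against 119 control reads and had a fold of 1.42 (1.14 to 1.78). Homer1, which encodes a postsynaptic scaffold with an activity-induced short form, followed with 238 IP reads against 43 over 4400 bp (fold 3.48, 2.50 to 4.93). Pam had an island of 200 IP reads against 54 (fold 2.33) and Spire1, an actin nucleator, one of 199 against 54 (fold 2.31).

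Few of the islands had a basal counterpart. Of the 4698, 113 overlapped a basal island (2.41%, 1.99 to 2.88%), against 2.15% of the whole KCl list. The basal list held 711 islands, of which 160 (22.5%, 19.5 to 25.8%) met the same rule of position and width, a share that includes the 22.4% of the KCl list within its interval. Of those 160, 117 overlapped a KCl island and 101 an island inside a gene by the rule. Shared islands had a median fold of 2.67 in KCl neurons, and the basal islands they overlapped had a median fold of 2.06 in basal neurons. The remaining KCl islands had a median fold of 2.34. With the islands ranked by p-value in 10 equal groups, 8.09% of those in the lowest group were shared (5.78 to 10.9%), and 0.426% in the highest (0.0516 to 1.53%). The KCl list is much the longer of the pair, and its folds are scaled by another library constant than the basal folds. The input behind the folds of either list is also unknown here. A missing basal island thus does not show that the site was free of BRG1 or BRM at the basal level.

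The shared islands with the highest lower limits in KCl neurons were in genes of varied roles. Mbnl1, a splicing regulator, had 97 IP reads against 8 control reads in KCl neurons (fold 7.62, 3.72 to 18.1), and the basal island held 41 against 25 (fold 1.86, 1.11 to 3.2). Ccnyl1, a cyclin Y-like protein, had 73 against 6 in KCl neurons (fold 7.64, 3.35 to 21.5) and 50 against 30 in basal neurons (fold 1.89, 1.18 to 3.09). Cacnb2, a beta subunit of voltage-gated calcium channels, had 121 against 13 in KCl neurons (fold 5.85, 3.29 to 11.3) and 34 against 11 in basal neurons (fold 3.51, 1.74 to 7.69). Dnah7c, an axonemal dynein gene, had a fold of 5.81 in KCl neurons (3.2 to 11.6) and 5.30 in basal neurons (2.15 to 15.7). Gpm6a had 5.02 in KCl neurons (3.15 to 8.45) and 2.63 in basal neurons (1.43 to 5.06). Snx7, Ofcc1, Nol4, Septin10 and Ryr1 made up the 10, with KCl folds of 4.73 to 6.22 and basal folds of 2.69 to 4.29. Paired islands overlap but differ in extent, and fold fell with width, so the paired folds do not compare the same bases. In Dnah7c the KCl island spans chr1:46725401-46727000 and the basal island only chr1:46725601-46726200. In Ccnyl1 the basal island is the longer, at chr1:64711801-64714200 against chr1:64711801-64712600 for KCl.

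Genes of activity-dependent transcription were described by lists of known roles. Across all protein-coding genes under 500 kb with open length, 14.3% were hosts, the density was 6.12 per Mb and the median fold 2.36. Since the share of hosts ran with gene length, at 4.0% under 50 kb, 24.3% at 50 to 100 kb, 53.7% at 100 to 200 kb and 80.2% at 200 to 500 kb, each list's count of islands is set beside the number at the mean density of its genes' length classes. Of 38 rapid activity-regulated genes, 17 are too short to have open length, and 3 of the other 21 were hosts, namely Npas4, Nr4a1 and Nr4a3, with 4 islands in 0.186 Mb (0.536 at class density). The 3 of 21 are 14.3% (3.05 to 36.3%), the share over all genes. All 21 are under 50 kb, where 4.0% of genes were hosts, and the interval includes both shares. The Nr4a1 island, over an internal start, held 93 IP reads against 33 (fold 1.77, 1.18 to 2.72), and the Nr4a3 island 90 against 32 (fold 1.77, 1.17 to 2.73). Both genes encode orphan nuclear receptors. With islands of at least 2-fold alone, 1 of the 21 genes, Npas4, was a host. Of the 26 delayed activity-regulated genes with open length, 6 were hosts, with 17 islands (8.82 at class density) at 13.1 per Mb (7.62 to 20.9). Dclk1, a microtubule-associated kinase, accounts for 10 of them. Of 33 genes of signalling to the nucleus, 16 were hosts, with 35 islands (22.5 at class density) at 11 per Mb (7.67 to 15.3) and a median fold of 2.40. They include Rps6ka5, a histone H3 kinase, with 182 IP reads against 24 (fold 4.76, 3.10 to 7.63), Camk2d, a calcium-dependent kinase, with 138 against 19 (fold 4.56, 2.81 to 7.81) and Hdac4, a histone deacetylase that shuttles with calcium signals, with 59 against 6 (fold 6.18, 2.67 to 17.5).

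Receptor and channel genes differed among themselves. GABA receptor genes held 32 islands (17.0 at class density) in 8 of 18 genes, at 14.4 per Mb (9.85 to 20.3). Gabrb1 had 11 of these, and the highest lower limit was in Gabra2, with 149 IP reads against 15 (fold 6.24, 3.66 to 11.4). Glutamate receptor genes held 25 islands (33.6 at class density) in 10 of 20 genes, at 6.18 per Mb (4.0 to 9.13), with Gria4 at 3.91-fold and Grm3 with 6 islands. Voltage-gated calcium channel genes held 20 (26.6 at class density) in 8 of 22, at 5.91 per Mb (3.61 to 9.13). Voltage-gated sodium and potassium channel genes held 51 (39.2 at class density) in 18 of 29, at 10.5 per Mb (7.84 to 13.8), with a median fold of 2.93. Among these Kcnb2 had an island of 12.2-fold (3.17 to 105) and Scn1a one of 5.92-fold (2.72 to 15.3).

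Synaptic, guidance and adhesion genes were hosts in many cases, as long genes were in general. Postsynaptic genes were hosts in 18 of 23 cases, with 39 islands (31.2 at class density) at 10.1 per Mb (7.18 to 13.8), led by Lrrc7, a scaffold of the postsynaptic density, at 8.54-fold (3.49 to 27.1). Synaptic vesicle and release genes were hosts in 9 of 27, with 32 islands (25.4 at class density) at 9.45 per Mb (6.47 to 13.3), of which 14 were in Ppfia2. Axon guidance genes were hosts in 21 of 30, with 53 islands at 8.84 per Mb (6.62 to 11.6), close to the 48.4 at class density, and 7 of them were in Sema3a. Neuronal adhesion genes were hosts in 13 of 20, with 46 (27.3 at class density) at 13.6 per Mb (9.96 to 18.1), and neuron structural genes in 15 of 28, with 43 (23.6 at class density) at 13.6 per Mb (9.86 to 18.4). Map2, a dendritic microtubule protein, held 97 IP reads against 12 in its leading island (fold 5.08, 2.78 to 10.2). Genes of cortical neuron transcription factors held 66 islands in 16 of 25 genes, at 21.4 per Mb (16.6 to 27.3), where 23.6 would lie at the mean density of their length classes. Their folds were lower than most, with a median of 1.98. A KCl island at an end was present in 24 of the 25, against 28.2% of all genes and 46.7% of hosts. Other lists also had many, with 24 of 30 axon guidance genes and 23 of 28 neuron structural genes. Some had fewer, with 10 of 22 voltage-gated calcium channel genes and 11 of 20 glutamate receptor genes. They include Cux2, of upper-layer neurons, at 3.31-fold (2.09 to 5.49), Nfib with 7 islands, Mef2c with 6 and Bcl11a at 3.77-fold (1.98 to 7.91). Genes of the BAF complex itself held 19 (12.7 at class density) in 11 of 30, at 9.63 per Mb (5.80 to 15.0), with 5 in Arid1b.

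Markers of other cells were also counted, since a culture can hold glia. Astrocyte genes held 10 islands in 4 of 15 genes, 7 of them in Slc4a4, a bicarbonate cotransporter. Oligodendrocyte lineage genes held 2 in 2 of 13, microglia genes 1 in 1 of 11, endothelial genes 2 in 2 of 14, and liver and muscle genes 5 in 4 of 18. Their densities were 9.86, 3.74, 3.68, 1.88 and 5.52 per Mb, and every one of these intervals includes 6.12. At class density they would hold 7.74, 2.89, 1.39, 7.09 and 6.37. Interneuron genes held 6 in 2 of 15, 5 of them in Reln. The part of other cell types in the islands was not tested.

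**Figure D5:**
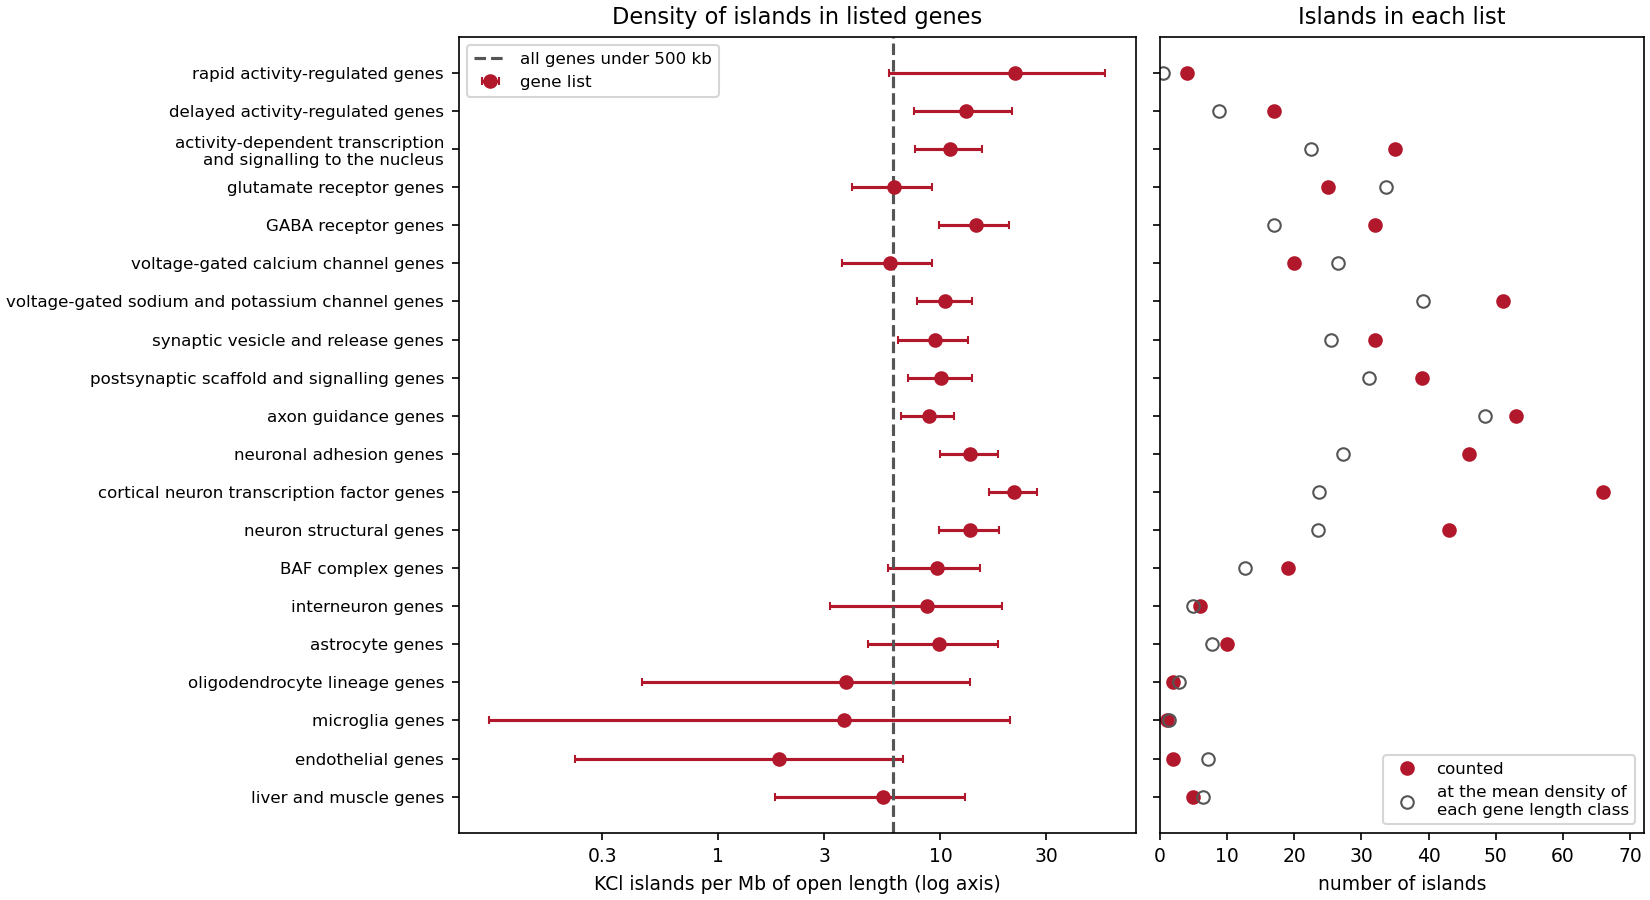
Islands per Mb of open length in 20 gene lists, with 95% Poisson intervals on a log axis and the value over all genes under 500 kb as a dashed line (left), and the number of islands counted in each list (red) beside the number at the mean density of each gene length class (open, right). Cortical neuron transcription factor genes have 66 islands where the length classes give 23.6, and endothelial genes 2 where they give 7.09.

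Internal starts of listed genes were covered in some other roles too, all named after their values were seen. Over all genes 14% of internal starts were covered. The lists ran from 10 of 14 starts in neuron structural genes to 0 of 8 in voltage-gated calcium channel genes. The counts were 4 of 8 for signalling to the nucleus, 6 of 18 for postsynaptic genes and 1 of 5 for axon guidance. They were 1 of 7 for neuronal adhesion and 0 of 4 for BAF genes. Islands lay over starts of Mef2a and Mef2c, which encode activity-responsive MADS box factors, at 1.65-fold (1.14 to 2.44) and 1.69-fold (1.09 to 2.68). Gphn, the scaffold of inhibitory synapses, had an island over its start 9.33 kb from the 5′ end at 1.92-fold (1.32 to 2.84), and Dlgap4, of the postsynaptic density, one at 107 kb at 1.55-fold (1.07 to 2.30). Unc5a, a netrin receptor, had one at 4.26 kb at 3.19-fold (1.78 to 6.12). Elavl2, a neuronal RNA-binding protein, had islands over starts near 23.6 and 28.1 kb, at 1.53-fold (1.09 to 2.17) and 1.62-fold (0.959 to 2.82). Of the 468 microRNA hairpins inside hosts, those overlapped by islands include Mir148a and Mir5710, the second in Dnaja4.

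Chromosome X held few of the islands. It had 30, or 0.945 per Mb of open length (0.637 to 1.35), against 6.41 per Mb on the autosomes (6.23 to 6.60), where single chromosomes ran from 4.69 on chromosome 7 to 7.82 on chromosome 18. The 30 had a higher median fold, 4.46 against 2.35 on autosomes, and a lower median control density, 5.00 against 9.17 reads per kb. Of the whole KCl list 1.08% lay on X, and of the basal list 2.39%. The part of control depth in the low count was not tested. Tbc1d8b above is on X.

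Islands on both sides of the limits of the rule are given here as a description. The 435 islands of 800 bp among the chosen had a median fold of 3.45, and the 437 islands of 600 bp just outside, at the same positions by rule, had 4.02. The 25 of 4800 bp had 1.61 and the 17 of 5000 bp had 1.82. Islands in genes at 2 to 3 kb from a gene end had a median fold of 2.08, and those in genes at 1 to 2 kb had 1.92. Dnm3, of 496 kb and just under the length limit, held islands of 1.54-fold, 2.79-fold and 2.84-fold among those listed, and Edil3, of 502 kb and just over it, held islands of 2.89-fold, 3.18-fold and 2.49-fold.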

How the data were processed

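BRG1/BRM ChIP-seq of cortical neurons was analysed from the island lists of the KCl and basal IP libraries, grouped by sample title. Reads were aligned with BWA to mm10 and islands were found by SICER 1.0 (per the submitters' processing notes), each list on 1 IP library with a control. Their names give the caller's settings, with 200 bp for the window, 600 bp for the gap and 0.01 for the FDR. The authors deposited raw counts of both IP and control reads for every island. They also deposited a p-value with its FDR and a fold, the ratio of the counts over a library constant found here to be 1.59 for KCl and 0.880 for basal. Which input served as control is not given in the sources used here. Library depth cannot be recovered. The islands hold 1433200 IP and 400612 control reads for KCl, and 142021 and 130865 for basal, and the fewest IP reads in an island were 20 and 18.

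Coordinates were made 1-based. Genes were the 21887 protein-coding genes of RefSeq GRCm38.p6, the same build. Strand was taken from the RefSeq promoter table for 17492 of them. Exons and introns were not told apart. Overlap meant at least 1 bp, and the set of islands was checked against bedtools 2.31.1 and on simulated islands. Shares have 95% exact (Clopper-Pearson) intervals, densities exact Poisson intervals, and a fold the exact binomial interval of IP among IP and control reads. The fold of an island with 0 control reads is given against a floor of 3. Without molecular identifiers and replicates these intervals cover counting error only. No test between conditions was possible.

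Motifs were planned for island sequences and were run on promoter windows, since no genome was used. The analysis of internal starts, the motifs GGGCGG and TGACG and the fold curves were added after the data were seen. The members and the 20 gene lists (539 entries, all matched) were chosen with earlier results of these data known. Named islands were the first 10 by the lower limit of the fold (islands of 20 or more IP reads and outside the top 1% of control density), the first 10 shared with basal islands, the 5 with most IP reads and up to 4 per list. Some islands that meet this rule are not reported here. Named hosts were the first 10 by number and by number per 100 kb with at least 3. Analyses used Python 3.11.15, numpy 2.4.6, pandas 2.3.3 and scipy 1.17.1.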

Additional observations from a re-analysis of the deposited data

How the results depend on the processing

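No paired analysis was possible because each condition had 1 IP library. Alternatives moved some of the values, by their own construction in most cases. Islands inside genes numbered 4698, and 2741 with hosts under 200 kb. Their share of the list, 22.4%, was 20.7% with 5 kb around gene ends, 13.1% with hosts under 200 kb and 26.2% with no width limits. The median fold of 2.36 was 2.46 with no width limits, 2.66 at an FDR of at most 1e-05 and 2.80 at a fold of at least 2. The share with a basal island, 2.41%, was 2.90% at that FDR, 2.99% at that fold and 1.77% when 50% of the island had to be covered. The density of 6.17 per Mb was 6.50 with 5 kb around ends, 5.12 with hosts under 200 kb, 7.22 with no width limits, 4.70 at that FDR, 4.13 at that fold, 6.43 where only length with room for a median island was counted and 6.41 without chromosomes X and Y, the last 2 chosen after the data were seen.

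The alternatives that follow were also added after the data were seen. Internal starts were covered in 14% of cases, in 8.41% at that FDR, 4.77% at that fold and 11% in genes whose outer 5′ end is itself a listed start. With a CpG ratio of 0.6 or more the share was 29.5%, and 17.9%, 9.81% and 23.8% under the same 3 settings. Under 0.6 it was 7.16%, and 4.22% at that FDR and 2.55% at that fold. The share with an island at an end was 46.7% of hosts and 25.1% of other genes, and 33.6% and 14.7% at that FDR. CpG-rich starts were covered more often than CpG-poor ones, and hosts had end islands more often than other genes, under each of these settings. The other 49 values of this kind kept within their own limits, 1.5 times for a count and the 95% interval for a share, density or median. Of 80 counts of hosts in single gene lists 1 moved by over 1.5 times. Depth limits what can be said of short islands with few control reads and of sites without a basal island.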
